A study of Rattus norvegicus with 6 samples.

Results

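Described here are 9 interferon response genes of the rat heart, the membrane genes Ifitm1, Ifitm2 and Ifitm3, the transcription factor genes Irf1 and Irf7, and the antiviral effector genes Isg15, Mx1, Mx2 and Oas1a. They were selected by symbol, 9 of the 32623 genes in the deposited table, and the group was chosen from these same data because Ifitm1 kept sham and ischemia apart. The difference between sham and ischemia in these 9 genes is therefore given as a description, with no p-value for any of them, and counts of calls among them are printed beside the share of all genes and support nothing.

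Myocardial tissue was taken from wild-type male rats, 3 after a sham operation and 3 after 30 min of ischemia, produced by tying the left anterior descending coronary artery under anesthesia and ventilation. Both groups carry the time of 30 min in their labels, and strain, age and the part of the heart sampled are not given in the sources used here. Total RNA was sequenced, so each value is an average over all cells of the tissue, in which fewer cells of a type and less RNA per cell cannot be told apart. The labels number the samples of each group 1 to 3 and do not name the animals, and p-values therefore measure the spread between these samples only.

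Interferons are secreted when cells sense foreign or misplaced nucleic acid. They bind receptors that act through Janus kinases on transcription factors, which enter the nucleus and switch on a large set of interferon-stimulated genes at a promoter element called ISRE. The response to interferon-gamma runs through a second element called GAS. The 9 genes are textbook targets or regulators of this response, and in the heart they are known from viral myocarditis and from the sensing of DNA released by injured cells.

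Total counts per library were 68529126 to 79591989, and 15.4% to 21.4% of them lay on mitochondrial genes. Some features of the libraries did not follow the groups. Ischemia replicate 2 stood apart from the other ischemia libraries in many interferon genes and in myeloid markers, so the fold changes of the 9 genes and of the named pathway genes are given with and without it. As it was picked for its high values in these genes, lower fold changes without it are partly set by that choice. Sham replicate 1 had 161 counts on 48 genes of chromosome Y, against 3218 to 8970 in the other libraries, although all rats are labelled male. The summed FPKM (fragment counts divided by gene length and library size) of 8 atrial muscle markers was 49942 and 40346 in sham replicates 1 and 3 and 456.1 in sham replicate 2, against 1430 to 10049 in ischemia. The 11 ventricular muscle markers were abundant in each library, at a summed FPKM of 30166 to 49048 in sham and 15046 to 29338 in ischemia.

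The 9 genes fell into 3 patterns. The Ifitm genes were higher in each ischemia library than in each sham library, with Ifitm1 rising the most. Irf1 was level. Irf7, Isg15, Mx1, Mx2 and Oas1a were low in ischemia replicates 1 and 3 and within or above the sham range in ischemia replicate 2.

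**Figure D1:**
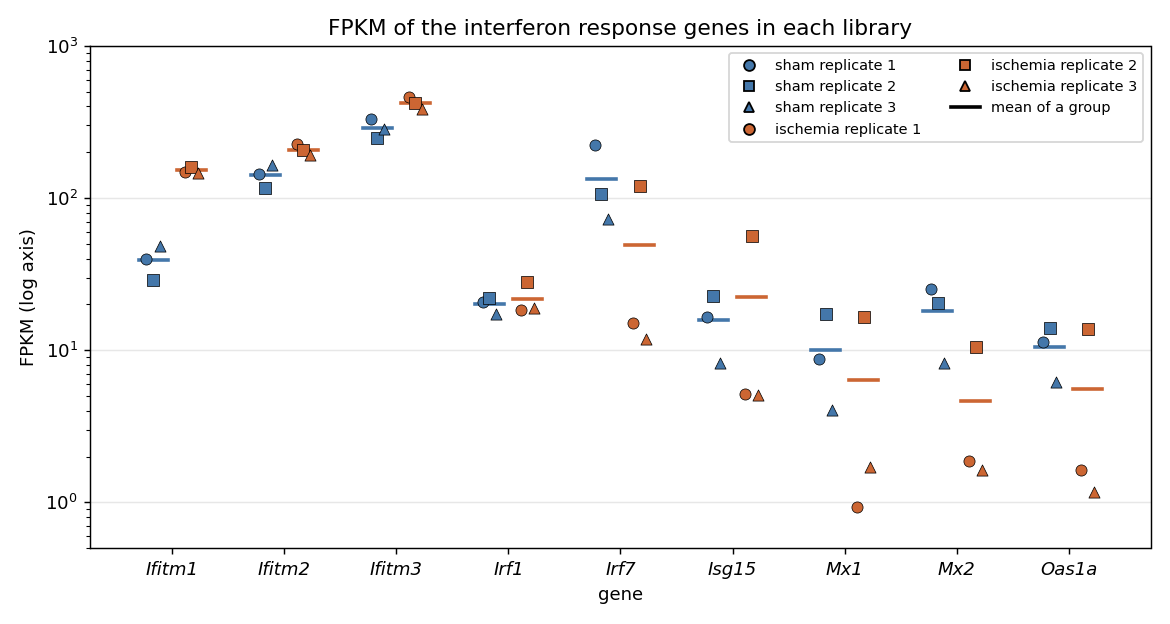
FPKM of the 9 genes in each library, on a log axis, with sham in blue and ischemia in orange, one symbol per replicate number and a bar at each group mean. The ischemia points of Ifitm1 lie between 147.2 and 159.9 with no overlap with sham, whereas for Irf7 and the 4 effector genes the square of ischemia replicate 2 lies far above the other ischemia points.

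The Ifitm genes encode small interferon-induced transmembrane proteins that sit in the plasma membrane and in endosomes and hinder the fusion of enveloped viruses. Ifitm1 (ENSRNOG00000004273) is placed by the table at chr1:213766758-213767815 on the plus strand, Ifitm2 (ENSRNOG00000014936) at chr1:213750192-213751405 on the minus strand and Ifitm3 (ENSRNOG00000015078) at chr1:213810696-213811901 on the minus strand, in a genome build not given in the sources used here. The gap from Ifitm2 to Ifitm1 is 15.4 kb and that from Ifitm1 to Ifitm3 is 42.9 kb. No other gene of the table lies inside that interval.

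FPKM of Ifitm1 in the sham libraries, in the order of their replicate numbers as for all genes below, was 39.9, 29.1 and 48.7, and in the ischemia libraries it was 149.4, 159.9 and 147.2. The lowest ischemia library was 3.02 times the highest sham library, and the ischemia libraries were closer to each other than the sham libraries were. The values rested on 1725, 1338 and 2006 counts in sham and 6993, 6811 and 5936 in ischemia. The sham libraries averaged 39.2 ± 9.82 FPKM (SD, n = 3) and the ischemia libraries 152.1 ± 6.78 FPKM (SD, n = 3), a ratio of 3.88. The log2 fold change was 1.89 ± 0.17 (SE), and 1.91 ± 0.18 without ischemia replicate 2.

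Ifitm2 had an FPKM of 143.6, 117.2 and 163.9 in sham and of 225.2, 206.1 and 192.1 in ischemia. Ifitm3, the best-known antiviral member of the family and an endosomal protein, had an FPKM of 329.9, 249.2 and 283.9 in sham and of 458.7, 422.4 and 385.2 in ischemia. In both genes each ischemia library was above each sham library, by less than in Ifitm1. The log2 fold changes were 0.48 ± 0.16 (SE) for Ifitm2 and 0.47 ± 0.18 (SE) for Ifitm3, with a ratio of mean FPKM of 1.47 in both genes. Without ischemia replicate 2 they were 0.54 and 0.52. Ifitm3 had the highest FPKM of the 9 genes in each of the 6 libraries. Ifitm1 came in place 4 of the 9 in each sham library and in place 3 in each ischemia library. The 3 genes are close relatives, and reads that fit more than one of them could have been split or lost in counting.

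Groups that did not overlap, with ischemia higher, were found in 3 of the 9 genes, namely Ifitm1, Ifitm2 and Ifitm3, and in 23.6% of the 13964 genes tested. The opposite, each ischemia library below each sham library, was found in 0 of the 9 and in 15.0% of all genes tested. Because the 9 genes were selected on this contrast, nothing is read from these shares.

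Irf1 and Irf7 encode interferon regulatory factors. Irf1 is a transcription factor that interferon-gamma induces and that switches on genes of antigen presentation. The table places it (ENSRNOG00000008144) at chr10:39109522-39116531 on the plus strand. Its FPKM was 20.7, 22.1 and 17.4 in sham and 18.4, 27.9 and 18.9 in ischemia, with ischemia replicate 2 highest and the other 5 libraries within the range from 17.4 to 22.1. The log2 fold change was -0.0040 ± 0.24 (SE), and -0.16 without ischemia replicate 2.

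Irf7 amplifies the type I interferon response, since it is itself induced by interferon and then drives the interferon-alpha genes. It lies (ENSRNOG00000017414) at chr1:214248837-214252456 on the minus strand, 436.9 kb from Ifitm3. Its FPKM was 222.7, 106.6 and 72.8 in sham and 15.1, 119.9 and 11.9 in ischemia. Ischemia replicates 1 and 3 were below all sham libraries, and ischemia replicate 2 was between sham replicates 1 and 2. The sham libraries themselves spread over a wide range, and the group means of 134.0 ± 78.6 (SD, n = 3) and 49.0 ± 61.4 (SD, n = 3) had SDs of the size of their difference. The sham mean was 9.93 times the mean of ischemia replicates 1 and 3. The log2 fold change was -1.60 ± 0.93 (SE) over all libraries and -3.34 ± 0.55 (SE) without ischemia replicate 2.

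Isg15 encodes a ubiquitin-like protein that is attached to other proteins after interferon exposure and is also secreted. The table places it (ENSRNOG00000021802) at chr5:173624310-173626248 on the minus strand. Its FPKM was 16.6, 22.6 and 8.21 in sham and 5.14, 56.6 and 5.05 in ischemia. Ischemia replicate 2 held the highest value of the 6 libraries, 3.59 times the sham mean, while the other ischemia libraries held the lowest. The log2 fold change accordingly changed sign, from 0.27 ± 0.99 (SE) with all libraries to -1.72 ± 0.54 (SE) without ischemia replicate 2.

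Mx1 and Mx2 encode dynamin-like GTPases that trap viral components and are induced by type I and type III interferon. Mx1 (ENSRNOG00000001959) lies at chr11:37891156-37914983 on the minus strand and Mx2 (ENSRNOG00000001963) at chr11:38035450-38059950 on the plus strand, 120.5 kb apart. Mx1 had an FPKM of 8.71, 17.4 and 4.08 in sham and of 0.930, 16.5 and 1.70 in ischemia. Mx2 had an FPKM of 25.4, 20.4 and 8.19 in sham and of 1.87, 10.5 and 1.64 in ischemia. For both genes ischemia replicates 1 and 3 were below all sham libraries, and ischemia replicate 2 was inside the sham range. The lowest values rested on 255 counts for Mx1 and 341 for Mx2. The log2 fold change of Mx1 was -0.92 ± 1.12 (SE), and -3.04 ± 0.82 (SE) without ischemia replicate 2. That of Mx2 was -2.13 ± 0.82 (SE), and -3.42 ± 0.59 (SE) without that library. Mx1 and Mx2 are paralogs, and reads common to both could have been split between them.

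Oas1a encodes an enzyme that senses double-stranded RNA and makes the second messenger that activates RNase L. It lies (ENSRNOG00000001369) at chr12:41200718-41211909 on the plus strand, in a family of near copies whose reads could be shared. Its FPKM was 11.4, 14.0 and 6.21 in sham and 1.62, 13.9 and 1.18 in ischemia. As for Mx1 and Mx2, ischemia replicate 2 was inside the sham range and the other ischemia libraries were below it. The log2 fold change was -1.13 ± 0.95 (SE), and -2.99 ± 0.51 (SE) without ischemia replicate 2.

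**Figure D2:**
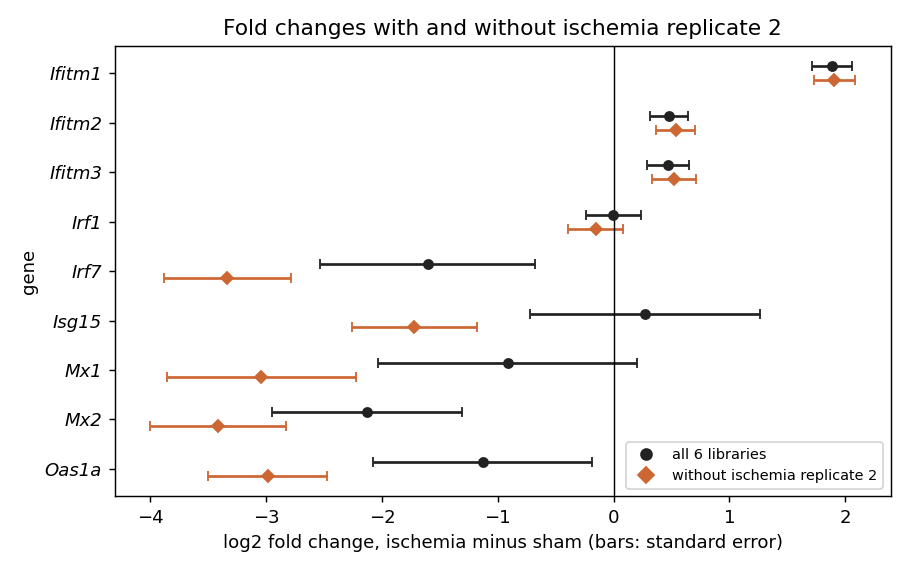
Log2 fold changes of the 9 genes, ischemia minus sham, with SE as bars, from all 6 libraries in black and without ischemia replicate 2 in orange. The Ifitm genes and Irf1 barely moved between both fits, whereas Irf7, Mx1, Mx2 and Oas1a went to values between -3.42 and -2.99 and Isg15 crossed 0.

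Over the 16 alternative ways of scaling, filtering, fitting or leaving out a library, the log2 fold change of Ifitm1 ranged from 1.79 to 2.0. That of Ifitm2 ranged from 0.39 to 0.56, as did that of Ifitm3. The sign was the same in 16 of 16 alternatives for 7 of the genes, in 10 of 16 for Isg15 and in 7 of 16 for Irf1. The range was -3.34 to -1.13 for Irf7, -3.42 to -1.74 for Mx2, -3.04 to -0.089 for Mx1, -2.99 to -0.66 for Oas1a and -1.72 to 0.77 for Isg15.

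With the edgeR quasi-likelihood test at an adjusted p of 0.05 over all genes, 1 of the 9 genes was counted as higher, Ifitm1, beside 5.18% of all genes tested, and 0 as lower, beside 1.53%. At an unadjusted edgeR p under 0.05 the counts were 3 higher, beside 18.2% of all genes, and 1 lower, beside 14.2%, and with DESeq2 they were 3 higher, beside 14.8%, and 1 lower, beside 12.5%. Without ischemia replicate 2, in 13847 genes tested, 1 of the 9 was counted as higher, beside 3.21% of all genes, and 3 as lower, beside 0.751%, namely Irf7, Mx2 and Oas1a. These counts describe genes selected on the contrast and are no evidence for it.

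The profiles of the genes over the 6 libraries were compared pair by pair. On the scale of log2(FPKM + 0.1), Pearson correlations among Ifitm1, Ifitm2 and Ifitm3 were 0.923 to 0.948 in 3 pairs. Among Irf7, Isg15, Mx1, Mx2 and Oas1a they were 0.722 to 0.975 in 10 pairs. Between an Ifitm gene and one of those 5 genes they were -0.772 to -0.15 in 15 pairs. Irf1, level between the groups, had a profile closer to the latter 5 genes, with r = 0.927 to Isg15, 0.748 to Mx1, 0.635 to Oas1a, 0.509 to Irf7 and 0.448 to Mx2, than to the Ifitm genes, with -0.021 to 0.149. All these values share the same 6 libraries and their depths, and most of the spread of the Ifitm genes is the step between the groups.

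Among the 13963 other genes tested, those with a profile most like Ifitm1 included Rps28 (r = 0.998), Btf3 (0.998) and Fpgs (0.997). Rps28 encodes a ribosomal protein, Btf3 a factor that binds nascent chains and Fpgs an enzyme that adds glutamate to folate. By that measure Ifitm2 ranked 668, Ifitm3 ranked 1086 and Irf1 ranked 7277. Isg15 ranked 8570, Mx1 10349, Oas1a 10966, Irf7 11337 and Mx2 12563, the last with r = -0.77.

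The promoters of the 9 genes, where one was matched, were searched for both interferon elements. RefSeq promoters of build GRCr8, which run from 250 bases before to 50 after the start of transcription, were matched for 6 of the 9 genes, namely Ifitm2, Ifitm3, Irf1, Irf7, Mx1 and Oas1a. The ISRE core, GAAA followed after any 2 bases by a second GAAA, on either strand, was present in Ifitm2, Ifitm3, Irf7 and Oas1a, 4 of the 6 genes, and in 3.92% of 33469 promoters. The GAS core, TTCNNNGAA, which reads alike on both strands, was present in Ifitm3, Irf1 and Oas1a, 3 of the 6 genes, and in 8.87% of all promoters. Mx1 held neither run of letters in this window. The stretches that carry a match are printed 5′ to 3′ on the strand of the gene, with the matched letters in capitals, to show how alike the elements are in genes that differed in level. The stretch of Ifitm2 is on the minus strand at chr1:205482362-205482391, that of Ifitm3 on the minus strand at chr1:205541778-205541807, that of Irf7 on the minus strand at chr1:205800073-205800102, that of Oas1a on the plus strand at chr12:41330418-41330447 and that of Irf1 on the plus strand at chr10:38417783-38417811.
Ifitm2: ccaccaacagGAAAAGGAAActgctagaga
Ifitm3: ttcagGAAAAGGAAAcTTCTGAGAAccgaa
Irf7: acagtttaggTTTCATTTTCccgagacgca
Oas1a: ctctcggGAAATGGAAACTGAAAatcttgt
Irf1: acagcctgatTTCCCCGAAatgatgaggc

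Ifitm2 and Ifitm3 carried the same letters at the ISRE core, 23 and 34 bases before the start site, and in Ifitm3 a GAS core followed it after 1 base. Irf7 carried the element on the opposite strand, 59 bases before its start. Oas1a carried a pair of overlapping matches, the nearer one 25 bases before the start, and a GAS core 190 bases before it. Irf1 carried a GAS core 133 bases before its start and no ISRE core. A match of letters is a description of the window and was not set against any binding data. ISRE cores were found both in genes that were higher in ischemia (Ifitm2, Ifitm3) and in genes that were low in ischemia replicates 1 and 3 (Irf7, Oas1a).

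The rest of the pathway was described from 9 lists of 165 other genes, of which 152 were in the table and 131 passed the expression filter. With edgeR, 8 of the 131 rose and 2 fell at an adjusted p of 0.05, close to the 5.18% and 1.53% of all genes tested (median log2 fold change 0.090, against -0.0015 over all genes). The ligands were close to absent. None of the 10 interferon genes passed the filter, Ifnb1 had an FPKM of 0.026 in ischemia replicate 2 and 0 elsewhere, and Ifng, the ligand of the gamma pathway, had 0 in sham and 0.063, 0.423 and 0 in ischemia.

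All 6 receptor genes had a log2 fold change above 0, with a median of 0.80. Ifngr2, a chain of the interferon-gamma receptor, rose by 1.19 ± 0.21 in log2 units (SE; edgeR adjusted p = 0.036), whereas Ifnar1 and Ifnar2, the chains of the type I receptor, had values of 0.56 and 0.44 that did not pass (adjusted p = 0.118 and 0.343). Ifngr1 had 1.04, Ifnlr1 1.41 and Il10rb 0.16, none of which passed with edgeR. Of the 6, 3 were higher with DESeq2, Ifngr1 among them, beside 14.8% of all genes tested. At an unadjusted edgeR p under 0.05, 4 were higher, beside 18.2%. Once ischemia replicate 2 was left out, Ifngr2 had 1.04 and still passed (edgeR adjusted p = 0.047), Ifnlr1 had 1.10, Ifngr1 0.71, Ifnar1 0.38, Ifnar2 0.056 and Il10rb 0.037.

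Of the 6 transduction genes, the kinase gene Jak2 rose by 2.16 ± 0.32 (SE; edgeR adjusted p = 0.030). It had 1.89 without ischemia replicate 2 (edgeR adjusted p = 0.036). Stat2 had -0.57 and Irf9 -0.43, and neither passed, nor did they without ischemia replicate 2, at -0.83 and -0.84. Both encode parts of the complex that binds the ISRE.

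Among 8 other interferon regulatory factor genes, Irf5, a myeloid factor that acts below Toll-like receptors, rose by 2.30 ± 0.42 (SE; edgeR adjusted p = 0.038) and no longer passed without ischemia replicate 2 (2.03, adjusted p = 0.060). None of 10 sensor and adaptor genes passed an edgeR adjusted p of 0.05, from -1.10 for Ddx58, which encodes the RNA sensor RIG-I, to 2.58 for Tlr7. At an unadjusted p under 0.05, 2 were higher and 0 lower, beside 18.2% and 14.2% of all genes tested. DESeq2 also called 2 higher and 0 lower, beside 14.8% and 12.5%. Ddx58 had -1.78 and Tlr7 1.46 without ischemia replicate 2, and neither passed. The other Ifitm genes tested were Ifitm6, with 4.06 ± 1.59 (SE), and Ifitm10, with 1.10 ± 0.46 (SE), and neither passed, with 1 of them higher at an unadjusted p under 0.05 and 0 with DESeq2. Ifitm6 had an FPKM of 0, 0 and 0.613 in sham and 1.03, 8.19 and 1.72 in ischemia, so its fold change rests on few sham reads. In the fit without ischemia replicate 2, Ifitm6 had 2.80 and Ifitm10 1.02.

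Of 12 negative regulators tested, 3 rose with edgeR at an adjusted p of 0.05, beside 5.18% of all genes tested. DESeq2 called 3 higher and 1 lower, beside 14.8% and 12.5%. Socs3, the feedback inhibitor of Janus kinases, had an FPKM of 4.65, 4.16 and 4.83 in sham and 70.2, 171.0 and 59.9 in ischemia, a rise of 4.34 ± 0.42 in log2 units (SE; edgeR adjusted p = 0.025). The phosphatase genes Ptpn6 and Ptpn2 rose by 2.12 and 1.73 (adjusted p = 0.040 and 0.041). Usp18, which encodes the protease that removes ISG15 from its targets, behaved like the 5 genes above, with 45.2, 31.3 and 12.8 in sham and 4.90, 18.2 and 4.83 in ischemia (log2 fold change -1.83, edgeR adjusted p = 0.125). With DESeq2 it passed (adjusted p = 0.024). With ischemia replicate 2 left out, Socs3 had 3.80, Ptpn6 1.66 and Ptpn2 1.32, all still past the edgeR threshold, and Usp18 had -2.66 (edgeR adjusted p = 0.069).

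**Figure D3:**
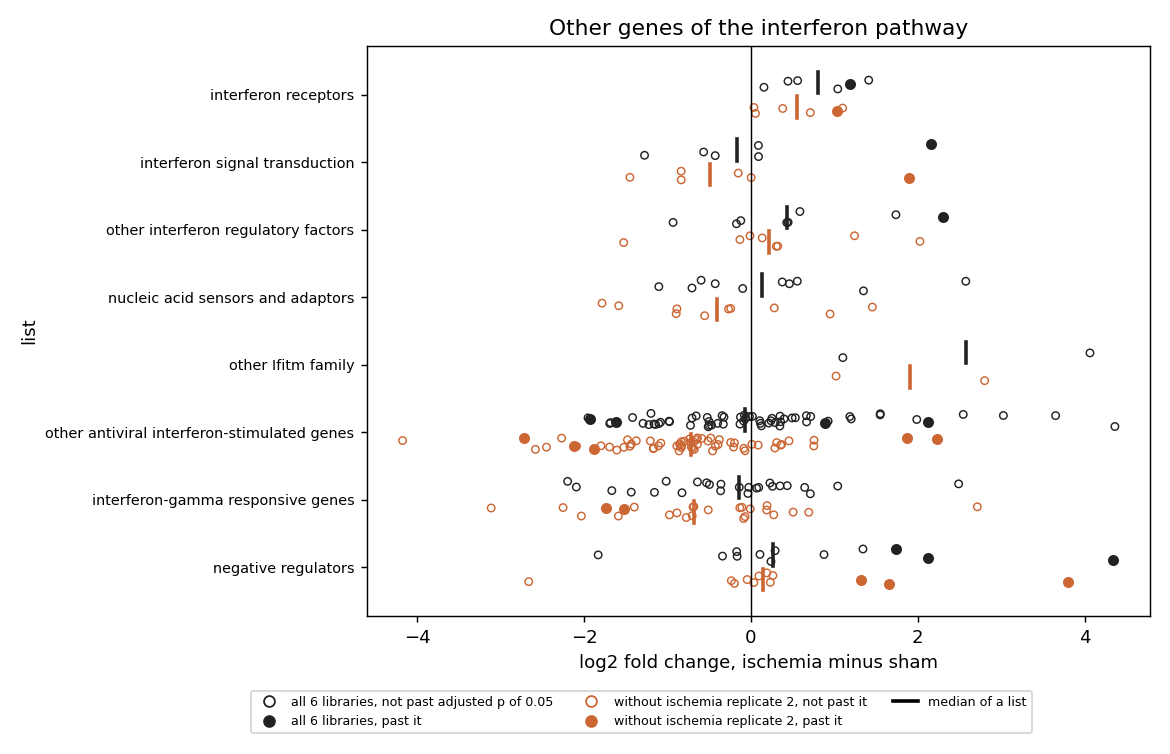
Log2 fold changes of the tested genes of 8 interferon pathway lists, ischemia minus sham, from all 6 libraries in black and without ischemia replicate 2 in orange, filled where the edgeR adjusted p is under 0.05, with a bar at each list median. The median of the other antiviral genes lies at -0.071 with all libraries and at -0.72 without ischemia replicate 2, while those of the receptors are 0.80 and 0.55.

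The closest comparison for Isg15, Mx1, Mx2 and Oas1a is the list of other antiviral interferon-stimulated genes, 62 of which were tested. Their median log2 fold change was -0.071, with 33 genes below 0 and 29 above. Apobec3, a cytidine deaminase gene (2.13, edgeR adjusted p = 0.033), and Shisa5 (0.89, adjusted p = 0.044) rose. Uba7, whose product is the activating enzyme for ISG15 (-1.93, adjusted p = 0.041), and Ifi27 (-1.62, adjusted p = 0.045) fell. These calls were lost in 10 of 16 alternatives for Ifi27, 9 of 16 for Shisa5, 6 of 15 for Uba7 and 5 of 15 for Apobec3. Without ischemia replicate 2, Apobec3 had 1.88 and Ifi27 -1.88, both past the edgeR threshold (adjusted p = 0.044 and 0.048), and Shisa5 had 0.76 and Uba7 -2.09, both just short of it (0.058 and 0.059). DESeq2 called 5 of the 62 genes higher and 11 lower, beside 14.8% and 12.5% of all genes tested. At an unadjusted edgeR p of 0.05, 7 were higher and 11 lower, beside 18.2% and 14.2%. The extremes were Tnfsf10, at -1.95 (-1.52 without ischemia replicate 2, past the threshold in neither fit), and Ifit1bl, at 4.36 ± 1.10 (SE; edgeR adjusted p = 0.062). Ifit1bl had an FPKM of 0.992, 1.18 and 1.22 in sham and 5.08, 68.3 and 5.87 in ischemia, with no overlap, and it passed without ischemia replicate 2 (2.23 ± 0.28, SE; edgeR adjusted p = 0.030).

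Ischemia replicate 2 stood apart across this list as it did in the 5 genes. It was the highest ischemia library in 59 of the 62 genes (95.2%), against 49.3% of all genes tested. Ischemia replicates 1 and 3 were both below all sham libraries in 36 of the 62 (58.1%), against 18.0% of all genes. In 27 of these 36 ischemia replicate 2 was not, against 418 of the 2512 such genes over all genes tested. Among the 9 genes ischemia replicates 1 and 3 were both below all sham libraries in 5, in each of which ischemia replicate 2 was not below sham. Relative to the sham mean, on the log2(FPKM + 0.1) scale, the list median in the sham libraries was 0.16, 0.053 and -0.28, and in the ischemia libraries it was -0.68, 0.66 and -0.75. Over all genes tested the same medians lay between -0.24 and 0.16. Without ischemia replicate 2, the list median was a log2 fold change of -0.72, with 50 of 61 genes below 0, against a median of -0.043 over all genes. As that library was left out for being high in such genes, this shift was partly set by the choice. In that fit 2 genes were higher (Ifit1bl, Apobec3) and 3 lower (Ifi27, Ifi44, Rtp4) at an edgeR adjusted p of 0.05, beside 3.21% and 0.751% of all genes tested.

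Ifit1, Ifit2 and Ifit3 changed sign without ischemia replicate 2, whereas Ifit1bl stayed above 0. Ifit3 had an FPKM of 7.78, 11.5 and 3.92 in sham and 4.75, 149.5 and 5.79 in ischemia, and its log2 fold change went from 2.54 ± 1.37 (SE) to -0.64 without ischemia replicate 2. Ifit2 went from 0.53 to -0.69, and Rsad2, which encodes viperin, from -0.35 to -1.61. Ifit1 had an FPKM of 21.6, 0.040 and 10.9 in sham, and the low value of sham replicate 2 in a gene with near copies makes its fold change of 0.40 ± 1.55 (SE), or -1.08 without ischemia replicate 2, uninformative. Ifit1, Ifit2, Ifit3 and Rsad2 did not pass an edgeR adjusted p of 0.05 in either fit.

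**Figure D4:**
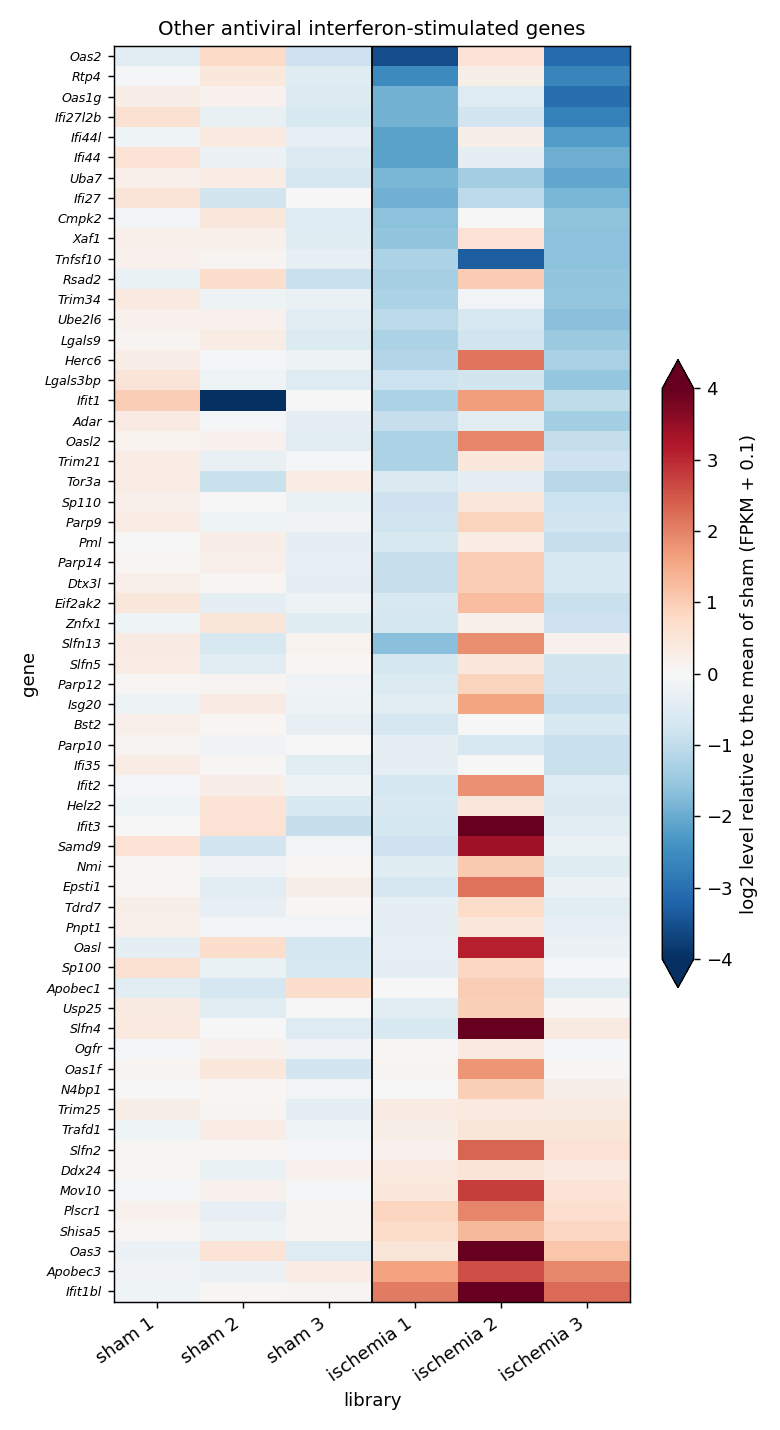
Level of 62 other antiviral interferon-stimulated genes in each library relative to the sham mean, on the log2(FPKM + 0.1) scale, ordered by ischemia replicates 1 and 3, with blue for lower, red for higher and colours saturating at 4 either way. Below the sham mean are 49, 16 and 47 genes in ischemia replicates 1 to 3, and 17, 27 and 48 genes in sham replicates 1 to 3. Sham replicate 3 is thus below it about as often as ischemia replicates 1 and 3.

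The list of interferon-gamma responsive genes was also set apart by ischemia replicate 2. Of 25 genes tested 0 rose and 0 fell with edgeR at an adjusted p of 0.05, the median was -0.14, and ischemia replicate 2 was the highest ischemia library in 21. At an unadjusted p under 0.05, 3 were higher and 3 lower, beside 18.2% and 14.2% of all genes tested. With DESeq2, 2 were higher and 3 lower, beside 14.8% and 12.5%. The values ran from -2.20 for Gbp1, a guanylate-binding protein gene, to 2.49 for the chemokine gene Cxcl11. Without ischemia replicate 2 the median was -0.68, Gbp1 had -2.25 and Cxcl11 2.71. In that fit 2 genes fell with edgeR, Gbp2 (-1.52) and Igtp (-1.74), beside 0.751% of all genes tested. Irf1, which belongs to this branch, had its highest value in ischemia replicate 2 as well but stayed level in the other libraries.

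Markers of other cells moved with the groups and with ischemia replicate 2. Summed FPKM of 18 neutrophil markers was 17.4 to 32.1 in sham and 858.5 to 4144 in ischemia, highest in ischemia replicate 2. At an edgeR adjusted p of 0.05, 10 of 14 tested markers were higher and 0 lower, beside 5.18% and 1.53% of all genes tested. Lcn2, a large part of the sum in ischemia replicate 1, was instead lowest in replicate 2 among the ischemia libraries, at an FPKM of 952.1, 137.1 and 337.2. Retnlg, Ngp, Elane and Fpr1 had 0 counts in all sham libraries, Fpr1 also in ischemia replicates 1 and 3. Mpo went the other way, with 0, 119 and 808 counts in sham and 0, 4 and 0 in ischemia, as did Ly6g6e, with 58, 0 and 26 against 14, 0 and 0. For 15 monocyte and macrophage markers the sums were 296.4 to 475.3 and 1042 to 5379, again highest in ischemia replicate 2, with 7 of 15 higher and 0 at 0 counts throughout sham. Lyz2 alone made up 746.1, 4747 and 1477 of the ischemia sums, and the macrophage genes C1qa (-0.66), C1qc (-0.42) and Adgre1 (-1.13) had log2 fold changes below 0. Of the list, 2 markers were lower by DESeq2 and 3 at an unadjusted edgeR p under 0.05, beside 12.5% and 14.2% of all genes tested. The part of neutrophils, monocytes and macrophages in the level of Ifitm1, and in the high Isg15, Mx1 and Oas1a of ischemia replicate 2, was not tested.

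The other marker lists had median log2 fold changes from -2.98 for atrial markers and -1.45 for fibroblast markers to 0.96 for lymphocyte markers. Lymphocyte sums were 27.1 to 39.4 in sham and 44.4 to 65.4 in ischemia (2 of 13 higher, 1 lower). Endothelial sums were 358.9 to 379.9 and 448.5 to 522.7 (0 of 11 called). Plasmacytoid dendritic cells are the main source of interferon-alpha, and their markers summed to 121.5 to 161.1 in sham and 104.3 to 194.9 in ischemia, highest in ischemia replicate 2 (0 of 5 called), with the defining genes Siglech and Ptcra at 0 counts in all sham libraries. In ischemia Siglech had 30, 184 and 44 counts and Ptcra 16, 71 and 23, highest in ischemia replicate 2, and Bst2 and Irf8 of the list are interferon targets themselves. Bst2 alone made up most of the sums, with an FPKM of 145.6, 132.1 and 101.5 in sham and 79.4, 125.2 and 83.6 in ischemia. Fibroblast sums were 835.3 to 2521 and 360.7 to 841.7 (0 of 9 called). Of the atrial markers 0 of 8 were called, and their sum was lowest in sham replicate 2, in which Ifitm1, Ifitm2 and Ifitm3 also had their lowest sham values. For the lists with 0 calls, DESeq2 gave 2 higher and 1 lower endothelial markers, 2 and 0 for plasmacytoid dendritic cells, 1 and 5 for fibroblasts, 0 and 2 for atrial and 0 and 4 for ventricular muscle, and the unadjusted edgeR p under 0.05 gave 3 and 1, 2 and 0, 1 and 5, 0 and 3, and 0 and 4 in the same order. Over all genes tested, DESeq2 gave 14.8% higher and 12.5% lower, and the unadjusted edgeR p under 0.05 gave 18.2% and 14.2%. The part of the marker differences in the values of the 9 genes was not tested.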

How the data were processed

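Total RNA of rat myocardium was sequenced by the study with a stranded total RNA kit. The submitters' processing notes name STAR and HTSeq, with no version, and the genome build is not given in the sources used here. The authors deposited 1 table with raw counts, whole numbers that were not normalized, and FPKM, computed by the authors from gene length and library size, with 0.0001 in place of 0. All 6 samples have a column of each unit, and 0 columns were left unmapped. Total counts were 68529126 to 79591989 per sample. At that depth 3 counts equal 0.0377 to 0.0438 CPM (counts per library size), a floor for counting error alone.

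The 13964 genes whose FPKM averaged 0.5 or more across samples were tested with edgeR by quasi-likelihood on the deposited counts, with trimmed mean of M-values scaling and no covariate. Two-sided p-values received a Benjamini-Hochberg adjustment across these genes, and 0.05 was the threshold. SEs are the absolute log2 fold change divided by the square root of F. The code was checked on simulated data. Alternatives were DESeq2, limma on log2(FPKM + 0.1), log2(FPKM + 1) and log2(FPKM + 0.01), 3 other scalings, no filter on FPKM, a mean FPKM of at least 5, the replicate number as a block, and each of the 6 samples left out, and all were planned.

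The 9 genes and the pathway and marker lists were chosen with earlier results of these data known. Named were the 9 genes, list genes past the threshold (at most 6 a list), the highest and lowest gene of each list, the main ligands, receptors and transducers, Usp18, Rsad2, the Ifit genes, and the 5 genes most like Ifitm1, with 1 placeholder name passed over. Some genes that this rule names are not reported here. Ifi44, Rtp4, Gbp2 and Igtp and the marker genes Lcn2, Retnlg, Ngp, Elane, Fpr1, Mpo, Ly6g6e, Lyz2, C1qa, C1qc, Adgre1, Siglech, Ptcra, Bst2 and Irf8 were named outside that rule, after their values were seen. Reads, proteins and chromatin data were not analysed here. Fits were run in R 4.3.3 (limma 3.58.1, edgeR 4.0.16, DESeq2 1.42.0), and summaries in Python 3.11.15 with pandas 2.3.3 and matplotlib 3.10.9.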

Additional observations from a re-analysis of the deposited data

How the results depend on the processing

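Counts of calls moved with the method, and the cause was not tested. The log2 fold changes of Irf7, Isg15, Mx1, Mx2 and Oas1a moved most without ischemia replicate 2, and that of Isg15 was also below 0 under the 3 limma settings (-0.35 to -0.28) and with the replicate block (-0.45). With DESeq2, 2071 genes were higher and 1742 lower, of the pathway lists 18 were higher and 16 lower, and of the 9 genes 3 were higher and 1 lower. Total-count scaling gave 83 lower genes and no filter gave 93. In the pathway lists 1 gene was lower under each of the 3 limma settings, total-count scaling and no filter. Leaving out each sample in turn, between 0 and 1495 genes were higher and between 0 and 1115 were lower. List genes ranged from 0 to 12 higher and 0 to 5 lower, and the 9 genes from 0 to 1 higher and 0 to 3 lower, with the 3 lower only without ischemia replicate 2. Calls fell to 0, Ifitm1 included, when any sham replicate or ischemia replicate 3 was left out, where 1770 to 2128 genes were higher at an unadjusted edgeR p under 0.05 and 1069 to 1694 lower. In those 6 fits Rsad2 ranged from -1.61 to 0.38, Ifit1 from -1.08 to 1.39, Ifit2 from -0.69 to 0.90 and Ifit3 from -0.64 to 3.09, so their signs depend on single libraries.

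The replicate numbers do not pair the samples: same-numbered samples had correlations of their deviations of -0.053, -0.083 and -0.19, against a mean of 0.053 for differently numbered ones. With the replicate number as a block, edgeR called 0 genes higher and 0 lower (1826 and 1523 at an unadjusted p under 0.05), 0 list genes higher and 0 lower, and 0 of the 9 genes higher.

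With 3 libraries a group, of which 1 stood apart, the log2 fold changes of Irf7, Isg15, Mx1, Mx2 and Oas1a had SEs of 0.82 to 1.12. Their counts were 171 or more in each library, and the part of depth in these errors was not tested.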
